A study of Sus scrofa with 8 samples.

Results

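The genes described here are 38 names of fibroblast markers and of matrix genes other than collagens. They were taken as rows by gene name, by a rule that uses no measured value, but the names were chosen with earlier results of these data known. They fall into 8 proteoglycans, 13 adhesive and matricellular glycoproteins, 8 elastic fibre genes, 3 basement membrane genes and 6 fibroblast markers. Of these names, 37 have a row among the 30550 genes of the deposited table, and 33 were high enough to be tested, with at least 1 FPKM (fragment counts corrected for gene length and sequencing depth) in at least 4 of the 8 libraries. ABCA8, a lipid transporter gene used as a fibroblast marker, has no row of that name.

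The tissue was right ventricle of the pig (Sus scrofa). The PKP2_het group holds 4 libraries of pigs with a heterozygous knockout of PKP2, the gene of the desmosomal protein plakophilin 2, and the WT group holds 4 libraries of pigs with no such deletion. The series presents the knockout as modelling arrhythmogenic cardiomyopathy, a heritable disease in which heart muscle is replaced by fibrous and fatty tissue. The way the knockout was made, and the age and sex of the animals, are not stated in the labels. Nor do the labels say whether the 4 libraries of a group are 4 animals, so p-values measure only the spread between these libraries.

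The space between heart muscle cells holds a collagen scaffold together with the molecules considered here. Small proteoglycans such as decorin bind collagen fibrils and set their spacing, matricellular glycoproteins act between matrix and cell receptors, elastic fibres give recoil, and basement membranes wrap each muscle cell and capillary. Cardiac fibroblasts make most of this matrix, while endothelial and smooth muscle cells also make several of its components.

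The libraries held between 23637697 and 31313628 fragments assigned to genes. The share of fragments from mitochondrial genes ran from 22.0% to 37.6% in WT and from 21.1% to 52.1% in PKP2_het, with the highest value in PKP2_het replicate 3. PKP2 itself averaged 62.2 ± 8.17 FPKM in WT against 39.2 ± 9.99 FPKM in PKP2_het (SD, n = 4 each), and the groups did not overlap (two-sided exact permutation test over 70 relabellings, p = 0.0286, the smallest this design can give). In the limma fit over all genes its adjusted p was 0.164, so PKP2 was not called there. Although the labels name cardiomyocytes as the cell type, the protocol describes tissue. Decorin and the summed markers of fibroblasts, endothelial cells and smooth muscle were readily measured in every library, though some single genes were near or at 0. In tissue RNA, fewer cells of a type and less RNA per cell cannot be told apart.

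No fibroblast or matrix gene passed the genome-wide test between PKP2_het and WT. Of the 33 genes tested, 0 were called in limma at an adjusted p of 0.05, where 1.86% of all 10757 tested genes were called (1.15% higher and 0.707% lower). At an unadjusted p under 0.05 there were 4 of 33, against 12.8% of all tested genes (6.88% higher and 5.96% lower). These were EFEMP1 and MFAP5, with higher means in PKP2_het, and SPARC and PI16, with lower means. The PKP2_het and WT libraries did not overlap for EFEMP1 and MFAP5 only, which is 2 of 33, where the groups did not overlap for 9.19% of all tested genes (4.86% higher and 4.33% lower). The median log2 fold change of the 33 genes, on the log2(FPKM + 1) scale and with PKP2_het over WT, was 0.11, and that of all tested genes was -0.022. There were 18 positive and 15 negative values, and 45.7% of all tested genes were positive.

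PKP2_het replicate 3 stands apart by its mitochondrial share, and counts were also taken without it. Then 1 of 33, EFEMP1, was called higher, where 2.92% of all tested genes were called (1.81% higher and 1.11% lower). At an unadjusted p under 0.05 there were 8 of 33, against 16.6% of all tested genes. Of these 8, 5 had higher means in PKP2_het (9.08% of all tested genes) and 3 had lower means (7.48%). The groups did not overlap for 3 of 33, EFEMP1 and MFAP5 higher and SPARC lower, where this held for 15.7% of all tested genes (8.79% higher and 6.91% lower). The median was 0.080, against 0.0067 over all tested genes, and 22 of the 33 values were positive. Without PKP2_het replicate 2, which was the highest of its group for most members, the median was 0.0024 and 17 of the 33 values were positive.

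**Figure D1:**
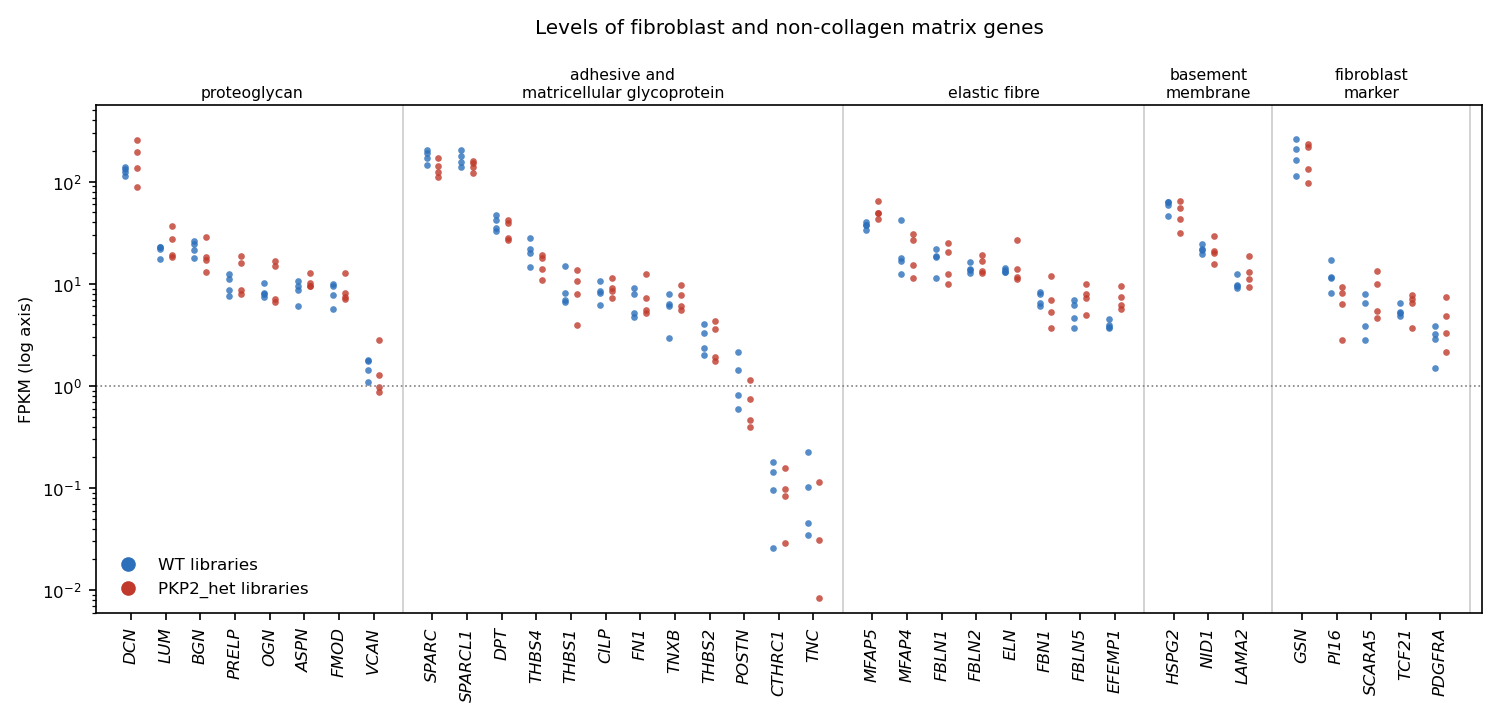
FPKM on a log axis for the 36 detected genes by role, with 1 point per library and PKP2_het and WT in different colours; the dotted line marks the filter level of 1 FPKM. GSN, SPARC, SPARCL1 and DCN sit highest, above 88 FPKM in every library, and TNC and CTHRC1 sit below 0.3 FPKM; COMP, listed at 0, and the TNC value of 0 in PKP2_het replicate 4 are not drawn.

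Averaged over the 8 libraries, the highest levels per gene length were those of GSN (179 FPKM), SPARC (158 FPKM), SPARCL1 (156 FPKM) and DCN (149 FPKM). HSPG2 followed at 53.3 FPKM, MFAP5 at 44.5 FPKM and DPT at 36.7 FPKM. The first 4 lie close together relative to their spread between libraries, and their order among themselves is not resolved. In the descriptions of single genes, 4 values in a row are replicates 1 to 4 of the group named.

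Decorin (DCN), which binds collagen fibrils and growth factors, was the most abundant proteoglycan. Its levels were 115, 124, 139.9 and 134 FPKM in WT, and 195, 256, 88.7 and 138 FPKM in PKP2_het. The WT libraries lay close together, whereas the PKP2_het libraries included both the highest and the lowest of all 8. The log2 fold change was 0.30 ± 0.28 (SE; 95% interval -0.34 to 0.93; limma adjusted p = 0.693). Without PKP2_het replicate 3 it was 0.57 (limma adjusted p = 0.182), and without PKP2_het replicate 2 it was 0.064 (limma adjusted p = 0.928). The DCN gene spans 91678601 to 91713925 on chromosome 5 (Sscrofa11.1) and is followed by lumican (LUM, 91748871 to 91756381), a related proteoglycan that also shapes collagen fibrils.

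Lumican repeated the order of decorin within PKP2_het, at 27.6, 37.0, 18.2 and 19.2 FPKM, against 17.3, 22.8, 21.8 and 22.9 FPKM in WT. Its log2 fold change was 0.21 ± 0.21 (SE; limma adjusted p = 0.715). The next genes on the same strand, KERA (keratocan) and EPYC (epiphycan), which are known from cornea and cartilage, were at 0.0332 FPKM on average and listed at 0, so the pair DCN and LUM made up the expressed part of this neighbourhood.

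Osteoglycin (OGN) and PRELP, 2 further leucine-rich proteoglycans of connective tissue, were also highest in PKP2_het replicates 1 and 2. OGN was at 16.7, 14.8, 6.69 and 7.10 FPKM in PKP2_het and at 7.89, 8.09, 10.2 and 7.36 FPKM in WT. PRELP was at 16.0, 18.9, 7.997 and 8.71 FPKM in PKP2_het and at 7.56, 8.70, 11.2 and 12.6 FPKM in WT. In both genes PKP2_het replicates 1 and 2 exceeded every WT library and replicates 3 and 4 did not. The log2 fold changes were 0.30 ± 0.27 (SE) for OGN and 0.27 ± 0.27 (SE) for PRELP, with limma adjusted p-values of 0.680 and 0.704.

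OGN sits in a run of related genes on chromosome 3, from 42116521 to 42243746, with OMD (osteomodulin), ASPN (asporin) and ECM2. Their log2 fold changes were 0.30 for OGN, 0.37 for OMD, 0.25 ± 0.17 (SE) for ASPN and 0.36 for ECM2, and none was called in limma. ASPN, known from periodontal ligament and cartilage, ranged from 9.42 to 12.7 FPKM in PKP2_het and from 6.09 to 10.7 FPKM in WT. OGN and ASPN both lie within CENPP on the opposite strand, which was at 0.523 FPKM on average.

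Biglycan (BGN), the closest relative of decorin and a gene of chromosome X, had a lower mean in PKP2_het. Its levels were 26.6, 21.3, 17.98 and 24.6 FPKM in WT, and 13.2, 17.1, 28.5 and 18.2 FPKM in PKP2_het. PKP2_het replicate 3 held the highest of all 8 values, and replicates 1 and 2, which led for decorin, held the lowest of all 8. BGN had a log2 fold change of -0.26 ± 0.22 (SE; limma adjusted p = 0.659), -0.46 without PKP2_het replicate 3 (adjusted p = 0.180) and -0.11 without PKP2_het replicate 1 (adjusted p = 0.843). Fibromodulin (FMOD), another collagen-binding member, was also highest in PKP2_het replicate 3, at 12.8 FPKM against 7.05 to 8.05 FPKM in the rest of its group. FMOD had a log2 fold change of 0.09 ± 0.21 (SE) with all libraries and -0.09 without that library.

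Versican (VCAN), the large proteoglycan of provisional matrix, was low, at 1.10 to 1.79 FPKM in WT and 0.862 to 2.82 FPKM in PKP2_het (log2 fold change -0.07 ± 0.21, SE; limma adjusted p = 0.917). Summed over the 8 proteoglycans, the level was 286, 365, 173 and 212 FPKM in PKP2_het, against 195 to 221 FPKM in WT. Decorin makes up most of this sum. The median log2 fold change of the 8 was 0.23, with 6 positive values and 0 called.

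**Figure D2:**
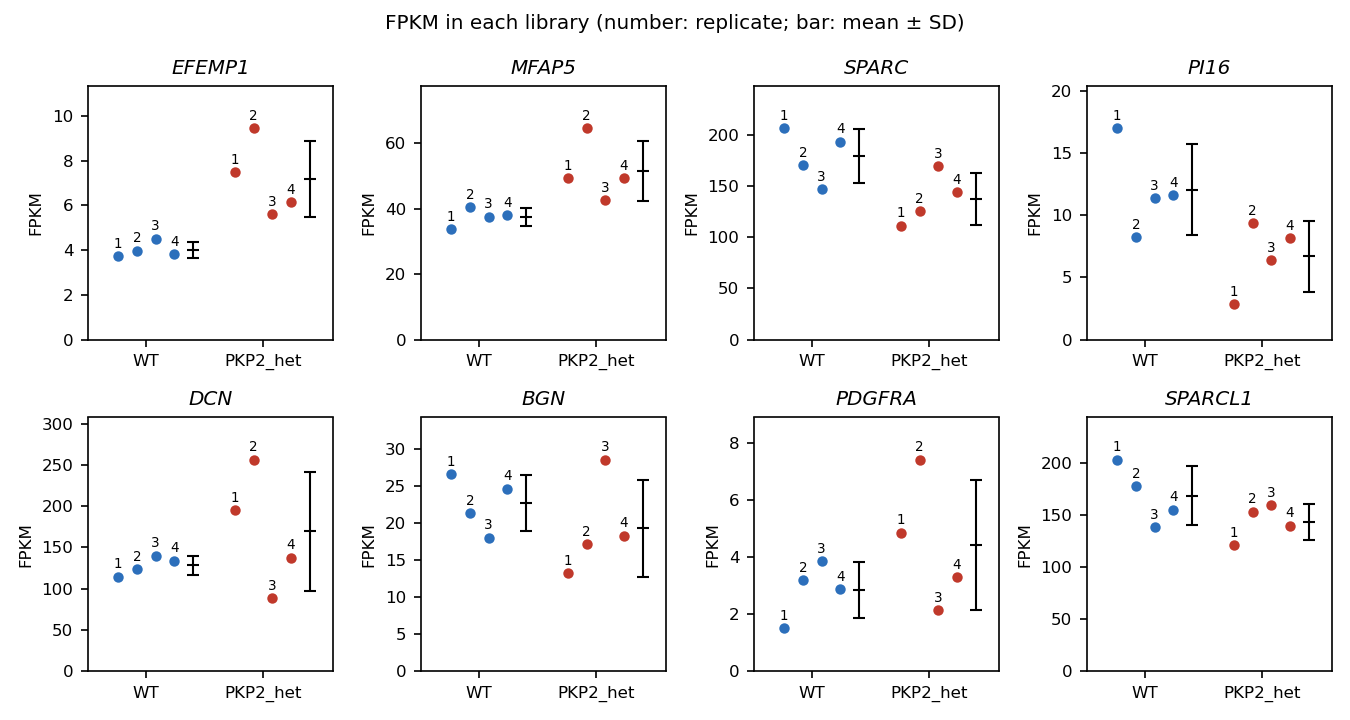
FPKM in each library for EFEMP1, MFAP5, SPARC, PI16, DCN, BGN, PDGFRA and SPARCL1, with replicate numbers beside the points and bars for the group mean ± SD (n = 4). EFEMP1 and MFAP5 separate the groups, SPARC and PI16 have lower PKP2_het means with overlapping libraries, and PKP2_het replicate 3 is the lowest of its group for DCN and the highest for BGN.

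SPARC (osteonectin), a collagen-binding matricellular protein made by fibroblasts and endothelial cells, had the lowest p of the glycoproteins. Its levels were 206, 170.2, 147 and 193 FPKM in WT, and 111, 125, 169 and 144 FPKM in PKP2_het. PKP2_het replicate 3 lay inside the WT range and the other 3 PKP2_het libraries lay below every WT library. The log2 fold change was -0.39 ± 0.17 (SE; 95% interval -0.76 to -0.01), with an unadjusted limma p of 0.0437 and an adjusted p of 0.370. Without PKP2_het replicate 3 it was -0.49 with an adjusted p of 0.126, and the groups no longer overlapped. SPARC lies on chromosome 16, from 71368164 to 71380972.

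The summed level of 14 endothelial markers moved with SPARC. It was 678, 549, 365 and 481 FPKM in WT, and 308, 373, 635 and 463 FPKM in PKP2_het. Within PKP2_het the order of the libraries was the same for the marker sum, SPARC and BGN, with replicate 1 lowest and replicate 3 highest, and within WT replicate 1 was highest and replicate 3 lowest for all of them. All 14 markers were tested, 12 had a negative log2 fold change, 0 were called in limma, and their median was -0.24. Without PKP2_het replicate 3 the median was -0.37, 14 of 14 values were negative and 3 had an unadjusted p under 0.05. CLDN5 (claudin 5), KDR (a VEGF receptor) and the transcription factor ERG had the smallest p, with log2 fold changes of -0.55, -0.40 and -0.29. The part of endothelial cells in the SPARC and BGN values was not tested.

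SPARCL1, a relative of SPARC, was at 204, 178, 139 and 155 FPKM in WT, and at 121, 154, 160.0 and 139.9 FPKM in PKP2_het. Its highest libraries were WT replicates 1 and 2, and the groups overlapped. The log2 fold change was -0.23 ± 0.16 (SE; limma adjusted p = 0.590). Dermatopontin (DPT), which links decorin to collagen, was at 35.4, 47.4, 41.7 and 32.7 FPKM in WT and 39.7, 42.1, 28.0 and 26.9 FPKM in PKP2_het (log2 fold change -0.21 ± 0.18, SE; limma adjusted p = 0.673).

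Among the thrombospondins, adhesive calcium-binding glycoproteins, THBS4 had the highest level. It was at 19.98, 22.0, 14.6 and 28.1 FPKM in WT and 11.0, 19.2, 13.8 and 18.03 FPKM in PKP2_het, and the ranges overlapped. THBS4 had a log2 fold change of -0.42 ± 0.22 (SE; limma adjusted p = 0.466). THBS1 and THBS2 had log2 fold changes of -0.06 ± 0.34 (SE) and -0.04 ± 0.24 (SE), with limma adjusted p-values of 0.954 and 0.955. The wide error of THBS1 goes with levels from 3.98 to 13.6 FPKM in PKP2_het and from 6.61 to 15.1 FPKM in WT.

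Fibronectin (FN1), the cell-adhesion protein of early matrix, was at 6.74 ± 2.16 FPKM (SD, n = 4) in WT and 7.55 ± 3.35 FPKM (SD, n = 4) in PKP2_het, where replicate 2 was highest at 12.4 FPKM. Its log2 fold change was 0.11 ± 0.27 (SE; limma adjusted p = 0.880). CILP, a secreted protein that binds TGF-beta, had a log2 fold change of 0.11 ± 0.17 (SE; limma adjusted p = 0.802). Tenascin X (TNXB), which helps to space collagen fibrils, had a log2 fold change of 0.32 ± 0.25 (SE; limma adjusted p = 0.642). It overlaps ATF6B on the same strand over 2265 bases.

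POSTN, TNC, CTHRC1 and COMP, the 4 of 13 glycoproteins that missed the filter, were at the low end of the scale. Periostin (POSTN) was at 2.16, 0.596, 1.44 and 0.813 FPKM in WT and 0.395, 1.13, 0.737 and 0.464 FPKM in PKP2_het, from 465 and 255 fragments, and it missed the filter. In a fit with no filter its log2 fold change was -0.39, with a limma adjusted p of 0.586. Tenascin C (TNC) rested on 96 fragments in WT and 31 in PKP2_het, and CTHRC1, a secreted marker of activated fibroblasts, on 16 and 13 fragments. COMP, a cartilage and tendon protein, was listed at 0 in all 8 libraries. TNC and CTHRC1 were not called in the fit with no filter, with limma adjusted p-values of 0.648 and 0.859. That fit used log2(FPKM + 1), which understates changes at such low levels.

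EFEMP1 (fibulin 3), a secreted glycoprotein of the fibulin family associated with elastic fibres and basement membranes, came closest to the threshold. Its levels were 3.73, 3.97, 4.51 and 3.82 FPKM in WT, and 7.47, 9.45, 5.61 and 6.15 FPKM in PKP2_het. The 4 WT libraries lay in a narrow band and every PKP2_het library lay above it. The ratio of the means was 1.79, and the log2 fold change was 0.69 ± 0.15 (SE; 95% interval 0.36 to 1.01; unadjusted limma p of 0.0010 and adjusted p of 0.0507). Without PKP2_het replicate 3 it was 0.78, with an adjusted p of 0.0180. Of 19 alternative fits, 6 called EFEMP1. These used all libraries with pseudocounts of 0.1 or 0.5, quantile normalisation, voom or library quality weights, or left out PKP2_het replicate 3. The members called were 1 of 33 in each, and 2 of 33 with the weights, where 1.84%, 1.92%, 1.83%, 1.78% and 6.13% of all tested genes were called in the first 5. The highest adjusted p for EFEMP1, 0.732, came from libraries scaled to equal FPKM sums, where the log2 fold change was 0.47.

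EFEMP1 (gene 100512046) lies on chromosome 3 from 85407677 to 85473251, wholly within CCDC85A on the opposite strand. The labels do not say whether counting used strand, and without it reads from the pair cannot be told apart. CCDC85A ranged from 2.85 to 3.73 FPKM in PKP2_het and from 3.67 to 4.32 FPKM in WT, so its mean difference had the opposite sign (log2 fold change -0.20, limma adjusted p = 0.444).

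MFAP5, a microfibril-associated glycoprotein that binds fibrillin, was the other gene whose groups did not overlap. Its levels were 33.8, 40.5, 37.6 and 38.04 FPKM in WT, and 49.4, 64.6, 42.7 and 49.4 FPKM in PKP2_het. The lowest PKP2_het library lay just above the highest WT library. The ratio of the means was 1.38 and the log2 fold change 0.44 ± 0.14 (SE; 95% interval 0.12 to 0.75; unadjusted limma p of 0.0114 and adjusted p of 0.204). The gene (100512231) lies on chromosome 5 from 62742520 to 62757522, on the chromosome that also carries PKP2 (41424687 to 41509590), DCN, LUM and FBLN1. Of 19 alternative fits, 1 called MFAP5, the fit with library quality weights (log2 fold change 0.55, limma adjusted p = 0.0238).

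Fibulin 5 (FBLN5), which binds tropoelastin and cell integrins, was at 4.64, 3.69, 6.24 and 6.92 FPKM in WT and 9.94, 7.87, 7.22 and 4.95 FPKM in PKP2_het. PKP2_het replicates 1 to 3 lay above every WT library, and replicate 4 lay within the WT range. The log2 fold change was 0.41 ± 0.21 (SE; limma adjusted p = 0.470). FBLN2, which joins elastic fibres and basement membranes, had a log2 fold change of 0.11 ± 0.15 (SE; limma adjusted p = 0.778).

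Elastin (ELN), the core protein of the elastic fibre, was almost constant in WT, at 13.6, 14.1, 13.0 and 13.0 FPKM. In PKP2_het it was at 11.2, 14.0, 26.9 and 11.6 FPKM, and replicate 3 alone held the group mean above that of WT. The log2 fold change was 0.15 ± 0.24 (SE; limma adjusted p = 0.813) with all libraries and -0.12 without PKP2_het replicate 3. Fibrillin 1 (FBN1), the main microfibril protein on which elastin is laid down, was lowest in that same library, at 3.72 FPKM against 5.26 to 11.8 FPKM in the rest of PKP2_het. Its WT range was 6.09 to 8.37 FPKM, and its log2 fold change was -0.14 ± 0.27 (SE; limma adjusted p = 0.841).

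MFAP4 and FBLN1 varied widely from library to library without following the groups. MFAP4, a microfibril-associated protein also made by smooth muscle, was at 12.4, 18.1, 42.1 and 16.8 FPKM in WT and 30.7, 26.6, 15.3 and 11.4 FPKM in PKP2_het. Its log2 fold change was -0.04 ± 0.39 (SE; limma adjusted p = 0.975). FBLN1, a fibulin that binds fibronectin, was at 11.4, 18.3, 18.6 and 22.0 FPKM in WT and 20.5, 25.03, 9.98 and 12.5 FPKM in PKP2_het (log2 fold change -0.10 ± 0.29, SE; limma adjusted p = 0.910). In both genes the lowest libraries were WT replicate 1 and PKP2_het replicates 3 and 4.

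**Figure D3:**
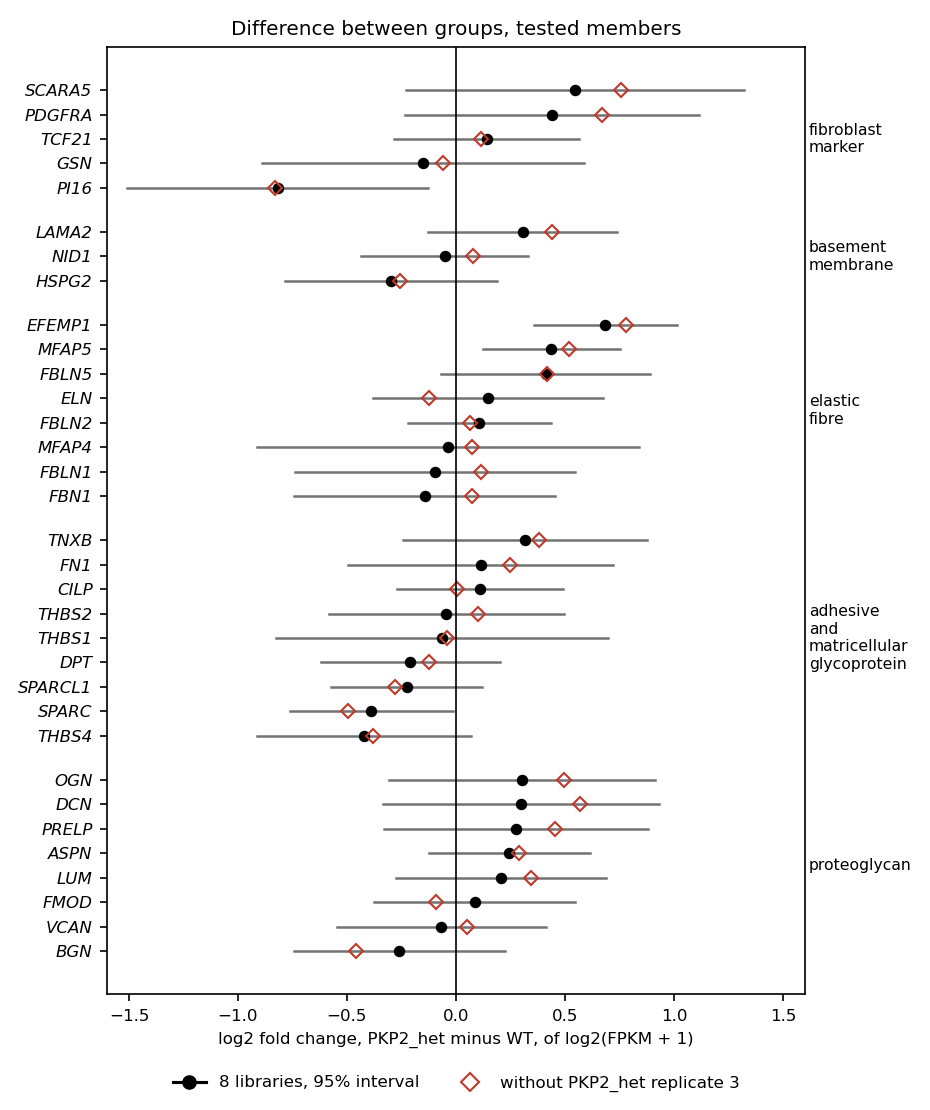
Log2 fold change of PKP2_het over WT on the log2(FPKM + 1) scale for the 33 tested genes, with 95% intervals (unadjusted), and open diamonds for the value without PKP2_het replicate 3. The intervals of EFEMP1, MFAP5, SPARC and PI16 leave out 0 and the other 29 span it.

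The basement membrane genes did not separate the groups. Perlecan (HSPG2), the heparan sulfate proteoglycan of basement membranes, was at 63.3, 63.9, 46.0 and 59.6 FPKM in WT and 31.3, 64.2, 42.9 and 55.2 FPKM in PKP2_het (log2 fold change -0.30 ± 0.22, SE; limma adjusted p = 0.614). Nidogen 1 (NID1), which links laminin to type IV collagen, was at 19.7, 24.5, 21.6 and 21.7 FPKM in WT and 20.2, 29.1, 15.7 and 21.0 FPKM in PKP2_het (log2 fold change -0.05 ± 0.17, SE; limma adjusted p = 0.918). PKP2_het replicate 2 was the highest of its group for both. Laminin alpha 2 (LAMA2), the laminin chain around muscle cells, was at 9.44, 9.08, 9.70 and 12.6 FPKM in WT and 13.1, 18.8, 9.41 and 11.2 FPKM in PKP2_het. LAMA2 had a log2 fold change of 0.31 ± 0.19 (SE; limma adjusted p = 0.562).

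Of the fibroblast markers, PI16, a secreted peptidase inhibitor that marks adventitial fibroblasts, had the largest difference. Its levels were 17.002, 8.22, 11.4 and 11.6 FPKM in WT, and 2.83, 9.35, 6.41 and 8.15 FPKM in PKP2_het. PKP2_het replicates 1, 3 and 4 lay below every WT library, while replicate 2 lay above WT replicate 2. The ratio of the means was 0.554 and the log2 fold change -0.82 ± 0.31 (SE; 95% interval -1.51 to -0.13; unadjusted limma p of 0.0251 and adjusted p of 0.290). When single libraries were left out it ran from -0.99 to -0.51. PI16 (gene 100155010) lies on chromosome 7, from 32600952 to 32613505.

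SCARA5, a ferritin receptor expressed by stromal cells, and PDGFRA, the platelet-derived growth factor receptor that marks most fibroblasts, shared the pattern of decorin. SCARA5 was at 2.84, 3.90, 6.42 and 8.005 FPKM in WT and 10.02, 13.4, 4.65 and 5.40 FPKM in PKP2_het. PDGFRA was at 1.499, 3.19, 3.85 and 2.86 FPKM in WT and 4.86, 7.42, 2.14 and 3.29 FPKM in PKP2_het. In both, PKP2_het replicates 1 and 2 were above all WT libraries, replicates 3 and 4 were within the WT range, and WT replicate 1 was the lowest of all 8. SCARA5 had a log2 fold change of 0.55 ± 0.35 (SE) and PDGFRA one of 0.44 ± 0.30 (SE), with limma adjusted p-values of 0.561 and 0.589.

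TCF21, a transcription factor of the fibroblast lineage, was at 6.48, 4.86, 5.32 and 5.16 FPKM in WT and 7.14, 7.78, 6.5 and 3.69 FPKM in PKP2_het. PKP2_het replicate 4 was the lowest library and the other 3 lay above every WT library, replicate 3 by a small margin. Its log2 fold change was 0.14 ± 0.19 (SE; limma adjusted p = 0.776). Gelsolin (GSN), an actin-severing protein abundant in fibroblasts, was at 114, 162, 264 and 209 FPKM in WT and 236, 219, 133 and 97.8 FPKM in PKP2_het (log2 fold change -0.15 ± 0.33, SE; limma adjusted p = 0.867). The row of that name is described as gelsolin and classed as lncRNA in the deposited table. LOC100520512, described there as ABCA8-like, averaged 2.37 ± 0.593 FPKM in WT against 2.43 ± 0.855 FPKM in PKP2_het (SD, n = 4 each), with a log2 fold change of 0.01.

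The members varied more within PKP2_het than within WT. The median SD of log2(FPKM + 1) over the 33 genes was 0.44 in PKP2_het and 0.24 in WT, against 0.22 and 0.14 over all tested genes. The SD was larger in PKP2_het for 27 of the 33 genes (81.8%) and for 74.1% of all tested genes. Without PKP2_het replicate 3 the median over all tested genes was 0.13, whereas over the 33 genes it was 0.45, so the spread of the matrix genes did not rest on that library.

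**Figure D4:**
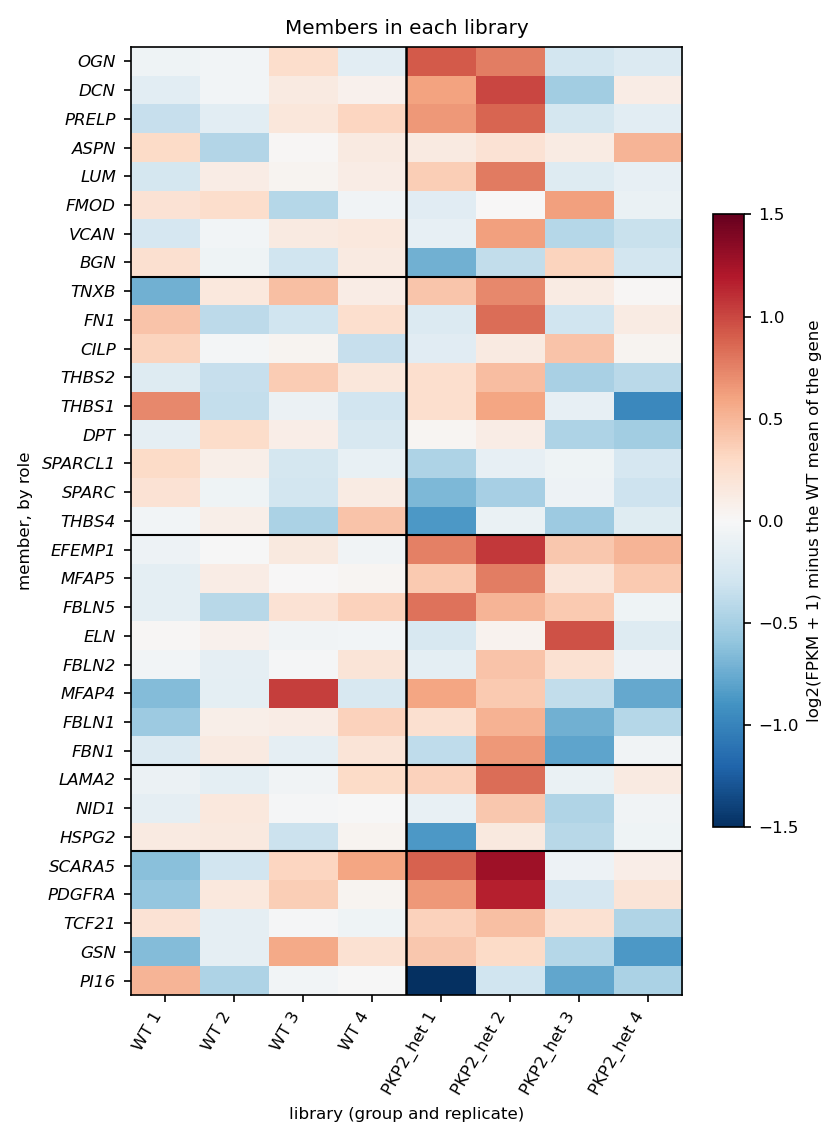
Difference of log2(FPKM + 1) from the WT mean for the 33 tested genes (rows, by role) in the 8 libraries (columns), with a colour scale from -1.5 to 1.5. The column of PKP2_het replicate 2 is mostly above the WT mean, and replicate 3 reaches high values for BGN, FMOD and ELN and values below the WT mean for DCN, OGN, PDGFRA and FBN1.

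PKP2_het replicate 2 stood at the top of its group for most of these genes. It was the highest PKP2_het library for 22 of the 33, where this held for 15.6% of all tested genes, and it was the lowest for 0 of the 33, against 17.3%. PKP2_het replicate 3 was the lowest of its group for 16 of the 33, near the 44.6% seen over all tested genes. The median deviation of the 33 genes from each gene's mean over the 8 libraries was 0.18, 0.43, -0.30 and -0.15 on the log2 scale for PKP2_het replicates 1 to 4. In WT it was -0.13, -0.065, -0.054 and 0.019. Over all tested genes this median stayed between -0.059 and 0.031 in every library.

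The mitochondrial share moved with this position. It was 25.7%, 21.1%, 52.1% and 33.4% in PKP2_het replicates 1 to 4, and 37.6%, 24.4%, 22.0% and 23.8% in WT. The libraries with the 3 highest shares, PKP2_het replicates 3 and 4 and WT replicate 1, had the 3 lowest medians of the matrix genes. PKP2_het replicate 2 had the lowest share and the highest median. The part of the mitochondrial share in the matrix values was not tested.

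**Figure D5:**
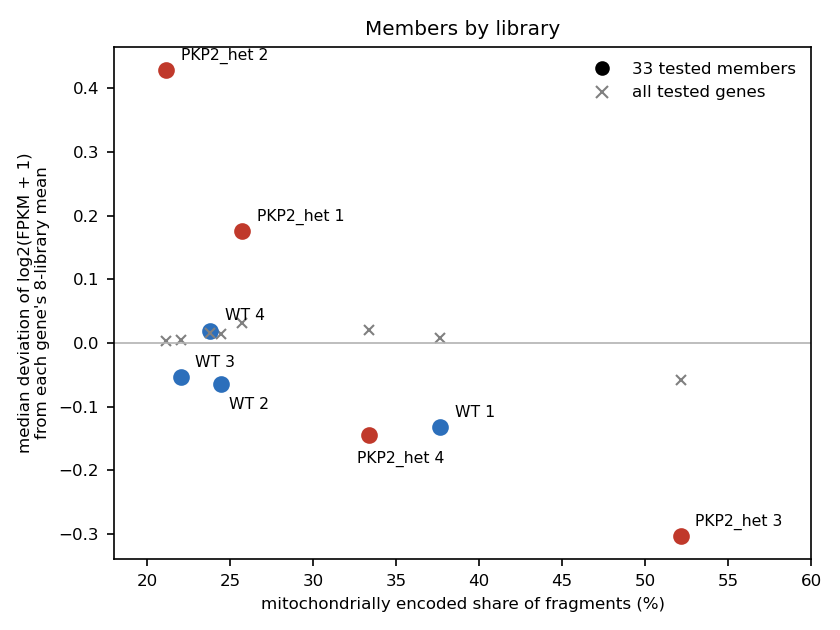
Median deviation of the 33 tested genes from their 8-library means (log2 scale, filled points) and of all tested genes (crosses) against the mitochondrial share of fragments in each library (percent). The matrix genes run from 0.43 in PKP2_het replicate 2 to -0.30 in PKP2_het replicate 3, while all tested genes stay between -0.059 and 0.031.

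The fragments in mitochondrial genes also bear on the scale. The deposited values were scaled to the median gene and their sums differ between libraries. With libraries scaled to equal FPKM sums, the median of all tested genes moved to -0.23 and that of the 33 genes to -0.14, and 11 of the 33 values were positive. Equal sums over nuclear genes only gave medians of -0.083 for all tested genes and 0.037 for the 33 genes. Then 18 of the 33 values were positive. The median of the matrix genes lay slightly above that of all tested genes under each of these scalings. Rescaling a library shifts all its genes by nearly the same amount on the log2 scale, so it cannot test this gap. On equal sums over all genes the log2 fold change of DCN was 0.03, that of LUM -0.05 and that of TCF21 -0.08.

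The wider gene lists around these members, named with earlier results of these data known, held 0 called genes in 7 of 7 lists in limma. Groups did not overlap for 4.86% (higher) and 4.33% (lower) of all tested genes. This held for 1 of 13 other proteoglycans, 1 of 32 other matrix glycoproteins and 1 of 22 glycosaminoglycan enzymes, each higher. It held for 2 of 16 collagens (higher), 1 of 18 matrix receptors (lower) and 0 of 12 other elastic fibre genes. Of 8 other basement membrane genes, 1 was higher and 1 lower in this way. Among 13 other tested proteoglycans, 2 had higher and 2 lower means in PKP2_het at an unadjusted p under 0.05, with a median log2 fold change of 0.17. Over all tested genes, 6.88% were higher and 5.96% lower at that level, which is the background for each of these lists. GPC3 (glypican 3), a cell-surface heparan sulfate proteoglycan, had a log2 fold change of 0.46 and groups that did not overlap (limma adjusted p = 0.130), SRGN (serglycin), the proteoglycan of blood-cell granules, had -0.65 (adjusted p = 0.238), and SDC3 (syndecan 3) had -0.34 (adjusted p = 0.360).

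Among 32 other matrix glycoproteins, 4 had higher and 2 lower means at that level, with a median of 0.12. SLIT3, a secreted guidance protein, had a log2 fold change of 0.68 and groups that did not overlap (limma adjusted p = 0.0982), ECM1 had -0.31 (adjusted p = 0.293), and CCN2 (connective tissue growth factor), a matricellular protein induced by TGF-beta and stretch, had 0.88 (adjusted p = 0.310). Of 12 other elastic fibre genes, 0 were higher and 1 lower, with EMILIN2 at -0.84 (adjusted p = 0.283), EFEMP2, a relative of EFEMP1, at 0.23 (adjusted p = 0.522) and MFAP2 at -0.20. The relatives of EFEMP1 and MFAP5 in this list were thus not called.

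Of 8 other basement membrane genes, 1 was higher and 1 lower at an unadjusted p under 0.05. AGRN (agrin), which joins basement membranes to cell surfaces, had a log2 fold change of -0.62 and groups that did not overlap (limma adjusted p = 0.169), and LAMA5 was at 0.20. Among 22 enzymes of glycosaminoglycan chain synthesis, which build the sugar chains of the proteoglycans, 1 was higher and 1 lower. CSGALNACT2 had a log2 fold change of 0.37 (limma adjusted p = 0.128), CHST15 -0.32 (adjusted p = 0.371) and NDST1 -0.26.

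Among 18 matrix receptors, 0 were higher and 2 lower at that level, and the median was -0.12 with 5 positive values. Without PKP2_het replicate 3 that median was 0.025 with 10 positive values. The integrin chains ITGA6, which binds laminin, ITGA1, which binds collagen, and ITGA9 had log2 fold changes of -0.54, -0.62 and -0.21, with limma adjusted p-values of 0.178 and 0.233 for the first pair. Among 16 collagens, 3 were higher and 0 lower, with a median of -0.004 (0.040 without PKP2_het replicate 3). These were COL18A1, whose fragment is endostatin, at 0.50 (adjusted p = 0.166), COL5A3 at 0.65 (adjusted p = 0.193) and COL4A5 at 0.32 (adjusted p = 0.259).

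Levels of cell type markers were set beside these values, and they do not measure the makeup of the tissue. Of 27 other fibroblast markers, 20 were tested, 16 had a positive log2 fold change, 0 were called and the median was 0.059. Their summed level was 276 to 413 FPKM in PKP2_het and 288 to 376 FPKM in WT, with the highest value in PKP2_het replicate 3, where the median of the members stood lowest. ABCA6, a lipid transporter of fibroblasts, had the smallest p, with a log2 fold change of 0.64 (limma adjusted p = 0.260), followed by GFPT2 at 0.35 and TBX18 at 0.20. Macrophage markers had negative values in 10 of 10 tested, with a median of -0.24 and 0 called. The smallest p were those of CSF1R, the receptor of a macrophage growth factor, and of the complement genes C1QC and C1QA, at -0.51, -0.53 and -0.45. Their summed level was 25.3 to 67.9 FPKM in PKP2_het and 47.7 to 64.0 FPKM in WT.

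LMOD1 (leiomodin 1), an actin regulator of smooth muscle, was called higher in PKP2_het among 13 markers of pericytes and smooth muscle (log2 fold change 0.57, limma adjusted p = 0.0346). CNN1 (calponin 1) at 0.63 and NOTCH3 at -0.52 came next in that list, with limma adjusted p-values of 0.261 and 0.349. The lymphocyte granule gene GNLY (granulysin) was called lower among 4 tested lymphocyte markers (log2 fold change -2.23, limma adjusted p = 0.000139), followed by CD2 at -0.35 and NKG7 at -0.09, neither called. All 12 lymphocyte markers, GNLY included, summed to 4.75 to 9.19 FPKM in PKP2_het and 12.8 to 17.2 FPKM in WT. Cardiomyocyte markers summed to 30361 to 38735 FPKM in PKP2_het and 30630 to 34873 FPKM in WT, with 0 called. The smallest p in that list were those of RYR2, TNNI3 and TTN, at -0.74, 0.46 and 0.18. Markers of myofibroblasts (CNN1 at 0.63, TAGLN at 0.26 and MYH11 at -0.27), adipocytes (CIDEA at -0.25, FABP4 at -1.10 and ADIPOQ at 0.51) and Schwann cells (SOX10 at -0.13 and S100B at -0.18) had 0 called in each list. Mesothelial markers summed to at most 3.72 FPKM in any library. Markers of tendon, cartilage and valve tissue summed to 2.44 to 4.08 FPKM in PKP2_het and 1.55 to 1.87 FPKM in WT. These last sums, which include CHAD and MKX, did not overlap between the groups, and their difference was not tested. From either list 0 genes passed the filter. The part of these cell types in the matrix values was not tested.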

How the data were processed

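The authors deposited 1 table of FPKM values with gene names, coordinates and gene lengths in bases. Alignment used HISAT2 2.0.5, per the submitters' processing notes; the counting program, strand setting and annotation: not given in the sources used here. FPKM times length was a whole multiple of 1 step for 100% of values, within 0.01, which gave fragments per gene. The library factors in the FPKM equal median-of-ratios factors. Coordinates match RefSeq for Sscrofa11.1 in 30335 of 30550 genes. The deposited FPKM values were compared as log2(FPKM + 1), which understates changes of low genes, with limma 3.58.1 in R 4.3.3 (variance trend, two-sided, no replicate term, Benjamini-Hochberg at 0.05) over 10757 genes with at least 1 FPKM in 4 libraries. The fit was tested on simulated data. The 38 members and the other lists were chosen with earlier results of these data known. Every member is named, and from each other list the called genes and up to 3 smallest p-values; 2 genes this rule names are not reported here. Alternatives covered pseudocounts, filters, scalings, voom on fragments, library weights, a replicate term, and each library left out in turn.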

Additional observations from a re-analysis of the deposited data

How the results depend on the processing

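With 4 libraries per group, the unadjusted 95% intervals of the tested members reached between 0.31 and 0.88 to each side on the log2 scale (median 0.49). Differences smaller than the reach of a gene's own interval were not detectable, and larger ones could still miss the adjusted threshold. EFEMP1, with a log2 fold change of 0.69, was not called in the limma fit over all genes. Since 0 members were called in that fit, the 18 or 19 alternative fits per tested member had no called direction to turn. The number of members called higher, 0, became 1 with pseudocounts of 0.1 and 0.5, quantile normalisation and voom on recovered fragments (EFEMP1 in each), 2 with library quality weights (EFEMP1 and MFAP5), and 0 to 1 when single libraries were left out, with 1 only without PKP2_het replicate 3. No member was called lower in any alternative. The median of the members moved from 0.11 to -0.14 with equal FPKM sums and to 0.037 with equal sums over nuclear genes. It ran from 0.0024 to 0.16 when single libraries were left out, lowest without PKP2_het replicate 2. Of the tested members, 12 changed sign in at least 1 fit without a library, and 21 did not.

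Genes called higher and lower over the whole table, 124 and 76, became 39 and 28 with a mean of at least 5 FPKM, 50 and 45 with equal FPKM sums, 367 and 292 with library quality weights, and 66 and 39 with the replicate block. They ran from 75 to 195 and from 40 to 119 when single libraries were left out. Same-numbered libraries did not deviate together (r of -0.39, 0.033, -0.23 and 0.20). With 4 libraries per group such correlations cannot decide whether the numbers pair the libraries. In the fit with the replicate block 0 members were called and EFEMP1 had a limma adjusted p of 0.157. The PKP2 difference ran from -26.2 to -18.2 FPKM without single libraries, with an exact permutation p of 0.0571 at its smallest size. With library quality weights 6.13% of all tested genes were called. In the lists these were 4 of 13 other proteoglycans, 2 of 32 other matrix glycoproteins and 1 of 12 other elastic fibre genes. They were also 1 of 8 other basement membrane genes, 1 of 22 enzymes of chain synthesis, 2 of 18 matrix receptors and 2 of 16 collagens. Leaving out single libraries called 0 to 2 other proteoglycans. These were ECM2 and SRGN, without PKP2_het replicate 3, where 2.92% of all tested genes were called. It also called 0 to 1 other elastic fibre genes (FBLN7, without WT replicate 3) and 0 to 1 collagens (COL18A1, without PKP2_het replicate 1). In the fit with no filter 1 other proteoglycan, CHAD, was called.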

Other observations

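Some low genes beside the members separated the groups although they missed the filter of 1 FPKM in 4 libraries; they were chosen after their values were seen, and folds are on the log2(FPKM + 1) scale of a fit with no filter. CHAD (chondroadherin), a leucine-rich repeat protein of cartilage and tendon matrix, was at 1.09, 1.07, 0.948 and 0.814 FPKM in PKP2_het replicates 1 to 4. In WT it was at 0.283, 0.438, 0.302 and 0.430 FPKM, so every PKP2_het library lay above every WT library. It rested on 208 fragments in PKP2_het and 82 in WT, and its log2 fold change was 0.54 with a limma adjusted p of 0.0157. Unlike decorin, CHAD differed little among the PKP2_het libraries.

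MKX (mohawk), a transcription factor known from tendon, was at 0.703, 0.360, 0.216 and 0.170 FPKM in PKP2_het and at 0.0125, 0.00890, 0.0252 and 0 FPKM in WT. The groups did not overlap, with 148 fragments in PKP2_het and 5 in WT, but the limma adjusted p was 0.158 at a log2 fold change of 0.41. The gene spans 39096778 to 39173384 on chromosome 10 (Sscrofa11.1).

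LOC106510102, an uncharacterized gene on chromosome 4 from 82291313 to 82387381, overlaps the dermatopontin gene on the opposite strand. It was at 0.456, 0.721, 1.12 and 0.521 FPKM in PKP2_het and at 0.0516, 0.0158, 0.0149 and 0.0269 FPKM in WT. These rest on 466 and 18 fragments, and the log2 fold change was 0.71 with a limma adjusted p of 0.0264. DPT itself, at 26.9 to 47.4 FPKM, had overlapping groups and a mean that was lower in PKP2_het.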
